A study of Mus musculus with 12 samples.

Results

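Mouse embryonic fibroblasts release chemokines and cytokines that attract and feed leukocytes, and 10 such genes were followed here through all libraries of a study of the NRF2 pathway. They are the chemokine genes Cxcl1, Cxcl5, Ccl2, Ccl7 and Cxcl12, the cytokine genes Il6, Lif, Il11 and Il33, and the growth factor gene Csf1. The genes were chosen by name, as products that fibroblasts are known to secrete, and their rows were taken from both deposited tables of gene counts. All 10 were listed in both tables, among 23186 genes listed in at least 1 of them. The cells were primary fibroblasts from embryos at embryonic day 13.5 to 14.5, homozygous for an inducible allele of Nrf2 or of Keap1, and they received adenovirus at a multiplicity of infection of 500. Each of 4 groups had 3 libraries, from RNA taken 4 days after infection. The Nrf2 D29H group carried homozygous LSL-Nrf2D29H and received adenoviral Cre, the recombinase that switches the D29H protein on. The Nrf2 knockout group carried the same allele and received empty adenovirus, so that Nrf2 is described as functionally absent. The Keap1 R554Q group carried homozygous CA-Keap1R554Q and received adenoviral Cre, and the Keap1 wild-type group carried that allele and received empty adenovirus. No group combined wild-type alleles with Cre, so Cre and the mutant protein vary together, and the number of embryos behind each group is not given in the sources used here.

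NRF2 is a transcription factor that turns on antioxidant genes, and KEAP1 is the adaptor that marks it for degradation. CXCL1 and CXCL5 draw neutrophils through the receptor CXCR2, while CCL2 and CCL7 draw monocytes through CCR2. CXCL12 holds blood stem cells and lymphocytes near stromal cells through CXCR4. Interleukin-6, LIF and interleukin-11 signal through a shared receptor subunit encoded by Il6st, which activates JAK kinases and STAT3. CSF1 keeps macrophages alive through CSF1R, and interleukin-33 is a nuclear alarm protein read by the receptor encoded by Il1rl1. Many of these genes are induced by NF-κB after injury or infection, and NRF2 has been reported to restrain induction of Il6 in macrophages.

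The shallowest library, labelled knockout replicate 3, had 14963004 counted reads and the deepest, labelled knockout replicate 2, had 23818477, and mitochondrial genes took 0.725% to 1.77% of them. The NRF2 target Nqo1, an enzyme that reduces quinones, rose after Cre in both alleles, by 3.74 (SE 0.13) and 3.41 (SE 0.10) on the log2 scale. Nfe2l2, the gene that encodes NRF2, was still read at 16.3 to 19.0 FPKM (read counts scaled for gene length and library size) in the libraries labelled knockout, against 20.4 to 24.2 FPKM in the D29H libraries, so that group is called labelled knockout here. In Keap1 wild type Nfe2l2 had 16.0 to 17.3 FPKM. Of 7 NRF2 targets, 6 were called lower and 1 higher in the labelled knockout than in Keap1 wild type, beside 10.1% of all genes called lower. Nqo1 was among the lower ones, at -1.90 (SE 0.13). All 11 fibroblast markers examined were listed, with summed levels of 19600 to 26400 CPM (counts scaled for library size only, with TMM factors). Macrophage markers summed to 195 to 220 CPM in D29H, 168 to 211 CPM in the labelled knockout, 86.2 to 101 CPM in R554Q and 116 to 128 CPM in Keap1 wild type. Of the 15 macrophage markers 14 were listed, and Adgre1 was in neither table. Neutrophil, mast cell and lymphocyte markers each summed to at most 1.04 CPM in any library, endothelial markers to 18.7 to 27.1 CPM and epithelial markers to 0.392 to 3.01 CPM. A lower level in a bulk library can come from fewer cells of a type or from less RNA per cell, and these cannot be told apart.

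Per unit of gene length, Csf1 and the monocyte chemokines were the most abundant of the 10 genes and Il33 the least. The median level over the 12 libraries was 125 FPKM for Csf1, which lay above 97.2% of the listed genes. It was 111 FPKM for Ccl7, 68.0 FPKM for Ccl2 and 41.4 FPKM for Cxcl12. The neutrophil chemokines were lower, at 18.9 FPKM for Cxcl5 and 7.49 FPKM for Cxcl1. Among the cytokines that use Il6st, Lif and Il11 were alike at 5.51 and 5.03 FPKM, while Il6 had 1.36 FPKM and lay above 46.8% of the genes. Il33 had a median of 0.13 FPKM, from 2 to 11 reads per library. The plot of levels by library shows that Cxcl1 and Cxcl5 were higher in every Nrf2 library than in any Keap1 library, and that the groups of Lif and of Csf1 overlapped their neighbours.

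**Figure D1:**
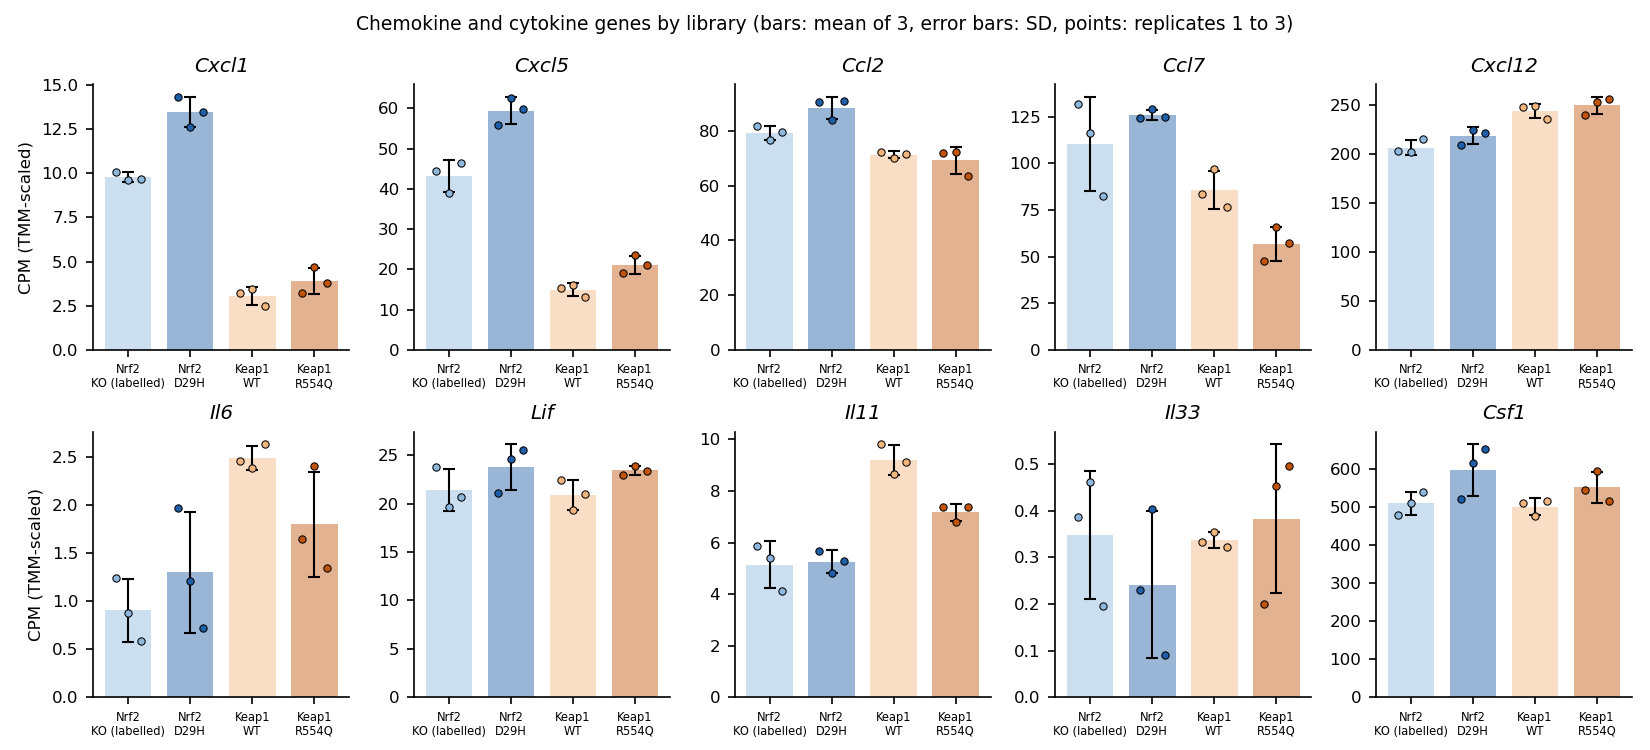
Levels of the 10 chemokine and cytokine genes in CPM (TMM-scaled over the 12 libraries) by group, with 1 panel per gene and its own axis from 0. Bars are means of 3 libraries, error bars are SD and points are replicates 1 to 3; Cxcl1 and Cxcl5 are higher in both Nrf2 groups than in both Keap1 groups, and the 3 Il11 points of the Keap1 wild type lie above all others.

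RefSeq promoter windows of build GRCm38.p6, from 250 bases before to 50 after a transcript start, were found for 7 of the 10 genes, and Ccl2, Ccl7 and Cxcl5 were without an entry. The windows were searched on both strands, because several of these genes are known NF-κB targets and the study manipulated NRF2. A narrow form of the NF-κB site (GGGA, any base, then TTTCC) was in 3 of the 9 windows and in 0.411% of 32851 promoters. This form was chosen after matches to the wider form (GGG, any 5 bases, then CC), which contains it, had been seen; the wider form was in 6 of the 9 windows and in 50.8% of all promoters. The core of the antioxidant response element that NRF2 binds, TGACNNNGC, was in 1 of the 9 windows, that of Lif, and in 12.4% of all promoters. The AP-1 site TGANTCA was in 3 of the 9 windows (7.81% of all promoters), and the C/EBP form TTNNGNAA was also in 3 (40.7%). The sequences are the 250 bases before the start for the 4 genes that held the narrow NF-κB form or the antioxidant core, 5′ to 3′ on the strand of the gene. Capitals mark the narrow NF-κB form in Cxcl1 (bases -71 to -62 from the start), Il6 (-44 to -35) and Csf1 (-154 to -145, on the opposite strand), and the antioxidant core in Lif (-241 to -233, on the opposite strand).
Cxcl1, chr5:90890995-90891244, plus strand: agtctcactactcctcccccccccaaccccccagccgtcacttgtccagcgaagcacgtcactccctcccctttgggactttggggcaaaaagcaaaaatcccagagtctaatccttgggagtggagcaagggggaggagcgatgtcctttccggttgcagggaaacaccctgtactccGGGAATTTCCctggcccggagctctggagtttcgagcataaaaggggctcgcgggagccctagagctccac
Il6, chr5:30012864-30013113, plus strand: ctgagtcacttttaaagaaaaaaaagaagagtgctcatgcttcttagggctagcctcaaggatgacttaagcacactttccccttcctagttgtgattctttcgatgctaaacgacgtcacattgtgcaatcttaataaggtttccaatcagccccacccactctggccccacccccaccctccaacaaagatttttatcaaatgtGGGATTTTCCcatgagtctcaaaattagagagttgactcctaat
Csf1, chr3:107760470-107760719, minus strand: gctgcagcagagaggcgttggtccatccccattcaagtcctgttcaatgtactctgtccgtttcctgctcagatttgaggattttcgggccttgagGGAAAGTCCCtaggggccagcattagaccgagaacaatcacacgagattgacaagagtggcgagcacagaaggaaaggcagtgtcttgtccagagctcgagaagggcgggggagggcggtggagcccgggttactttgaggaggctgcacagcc
Lif, chr11:4257318-4257567, plus strand: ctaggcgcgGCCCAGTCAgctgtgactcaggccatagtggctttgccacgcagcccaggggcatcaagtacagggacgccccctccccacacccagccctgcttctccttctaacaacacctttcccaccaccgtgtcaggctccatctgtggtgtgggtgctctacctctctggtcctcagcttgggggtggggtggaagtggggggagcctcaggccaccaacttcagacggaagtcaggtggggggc
A match describes letters only, and no binding was measured.

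The first comparison asked how D29H NRF2 with Cre differed from the labelled knockout with empty virus. The neutrophil chemokines Cxcl1 and Cxcl5 rose, each 1.37-fold, and no other gene of the 10 passed the test. Cxcl5 (ENSMUSG00000029371; GRCm38 chromosome 5, 90759299 to 90761625, plus strand) had 55.9, 62.6 and 59.8 CPM in D29H and 44.4, 38.9 and 46.4 CPM in the labelled knockout. The lowest D29H library lay above the highest of the other group. Its log2 fold change (log2FC) was 0.46 with an SE of 0.10, and edgeR's quasi-likelihood test gave an adjusted p of 0.0123. Cxcl1 (ENSMUSG00000029380; chromosome 5, 90891241 to 90893115, plus strand) had 14.3, 12.6 and 13.5 CPM in D29H and 10.1, 9.60 and 9.68 CPM in the labelled knockout. The 2 groups were again apart, and the log2FC was 0.45 (SE 0.12, adjusted p 0.036). These 2 calls among 9 tested genes stand beside 682 of 14370 genes called in this comparison, or 4.75% (3.47% higher and 1.28% lower). Il33 did not pass the filter on low counts in any comparison. The authors' deposited table gives log2FC values of 0.40 for Cxcl5 (adjusted p 0.00436) and 0.36 for Cxcl1 (adjusted p 0.0499). The Cxcl1 call was kept in only 1 of 6 fits with a library left out, the fit without D29H replicate 1, and the other 5 gave adjusted p up to 0.153. Its log2FC in the 6 fits ran from 0.41 to 0.51. The Cxcl5 call was lost without D29H replicate 2 (0.43, adjusted p 0.084), D29H replicate 3 (0.46, adjusted p 0.095) and labelled knockout replicate 2 (0.38, adjusted p 0.112).

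The monocyte chemokines showed no call between D29H and the labelled knockout. Ccl2 (ENSMUSG00000035385; chromosome 11, 82035571 to 82037453, plus strand) had 90.4, 83.9 and 90.9 CPM in D29H against 81.7, 76.5 and 79.5 CPM. The ranges did not overlap, but the log2FC of 0.16 (SE 0.10) had an adjusted p of 0.336. Ccl7 (ENSMUSG00000035373; chromosome 11, 82045712 to 82047525, plus strand) had 124, 129 and 125 CPM in D29H against 132, 116 and 82.5 CPM. Labelled knockout replicate 3, the shallowest library, was the low value, and the log2FC was 0.19 (SE 0.12, adjusted p 0.378). Cxcl12 (ENSMUSG00000061353; chromosome 6, 117168535 to 117181367, plus strand) had 209, 225 and 222 CPM against 203, 202 and 215 CPM, which overlapped. Ccl2, Cxcl1 and Cxcl5 were the 3 of 9 genes whose groups did not overlap, all higher in D29H, beside 25.4% of all tested genes apart in either direction and 12.4% apart and higher. A gene overlapping Ccl2 on the other strand, Gm17268, had 0 reads, and no other gene of the 10 was overlapped by an annotated gene.

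Cytokines and Csf1 did not pass the test in that comparison either. Il6 (ENSMUSG00000025746; chromosome 5, 30013161 to 30019968, plus strand) had 43, 27 and 16 reads in D29H and 29, 21 and 9 reads in the labelled knockout. The log2FC was 0.48 (SE 0.37, adjusted p 0.456), and the libraries of each group differed widely. Il11 (ENSMUSG00000004371; chromosome 7, 4773055 to 4782857, minus strand) had 5.68, 4.80 and 5.29 CPM against 5.88, 5.41 and 4.12 CPM, with a log2FC of 0.02 (SE 0.17). Lif (ENSMUSG00000034394; chromosome 11, 4257557 to 4272514, plus strand) had 21.1, 24.6 and 25.6 CPM against 23.8, 19.7 and 20.7 CPM, also overlapping. Csf1 (ENSMUSG00000014599; chromosome 3, 107741048 to 107760469, minus strand) had 521, 617 and 654 CPM against 480, 512 and 540 CPM. D29H replicate 1 was the low value of its group, and the log2FC of 0.22 (SE 0.12) had an adjusted p of 0.257. Il33 (ENSMUSG00000024810; chromosome 19, 29925114 to 29960718, plus strand) had 5, 9 and 2 reads against 9, 11 and 3 reads. The median log2FC of the 9 tested genes was 0.19, beside 0.0 over all genes tested.

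In the Keap1 allele, R554Q with Cre was compared with wild type with empty virus. Cxcl5 rose 1.43-fold and the monocyte chemokine Ccl7 fell to 0.666 of its wild-type level. Cxcl5 had 19.0, 23.5 and 21.0 CPM in R554Q and 15.4, 16.2 and 13.1 CPM in wild type, with no overlap. The log2FC was 0.51 (SE 0.11, adjusted p 0.0137), and 0.42 (adjusted p 0.00498) in the authors' deposited table. Ccl7 had 47.5, 65.6 and 57.5 CPM in R554Q and 83.7, 96.7 and 76.7 CPM in wild type. Every R554Q library lay below every wild-type library, and the log2FC was -0.59 (SE 0.11, adjusted p 0.0042). The authors' deposited table gives -0.50 (adjusted p 7.04e-05). These 2 of 9 calls stand beside 872 of 14128 genes called, or 6.17% (3.77% higher and 2.40% lower). The Cxcl5 call was lost without R554Q replicate 2 (0.43, adjusted p 0.063) and wild-type replicate 3 (0.43, adjusted p 0.0803). The Ccl7 call was lost without R554Q replicate 1 (-0.47, adjusted p 0.0539) and with GC and length offsets (-0.37, adjusted p 0.0524). The summed macrophage markers were also lower in R554Q (86.2 to 101 CPM against 116 to 128 CPM), with 1 of 13 called, Lyz2 at -0.53. Lyz2 weighs most in the sum, with 18910 reads over the 12 libraries, before Csf1r with 3241. The median log2FC of the 13 was -0.26, while Csf1r (0.03), C1qc (0.11) and Cd68 (0.19) did not fall. The part of these markers in the Ccl7 result was not tested.

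The neighbour of Ccl7 did not pass the test. Ccl2 starts 10.1 kb before Ccl7, and it had 71.9, 72.3 and 63.6 CPM in R554Q and 72.4, 70.1 and 71.5 CPM in wild type. These groups overlapped, with a log2FC of -0.04 (SE 0.08, adjusted p 0.828). The ratio of Ccl7 to Ccl2 in FPKM was 0.904, 1.24 and 1.24 in the R554Q libraries and 1.58, 1.89 and 1.47 in wild type. In the Nrf2 culture the ratio was 1.87, 2.10 and 1.88 in D29H and 2.21, 2.08 and 1.42 in the labelled knockout. The R554Q libraries thus had the 3 lowest ratios of the 12, all under 1.42.

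Cxcl1 and the cytokines were not called in the Keap1 comparison. Cxcl1 had 3.21, 4.67 and 3.81 CPM in R554Q and 3.22, 3.45 and 2.47 CPM in wild type, from 46 to 103 reads per library. The groups overlapped, and the log2FC was 0.36 (SE 0.20, adjusted p 0.295). Il11 had 7.37, 6.80 and 7.37 CPM in R554Q and 9.81, 8.67 and 9.11 CPM in wild type. Its groups were apart, with the wild type higher, yet the log2FC of -0.35 (SE 0.13) had an adjusted p of 0.101. Il6 had 1.65, 2.40 and 1.34 CPM against 2.46, 2.38 and 2.63 CPM, and its log2FC was -0.45 (SE 0.25, adjusted p 0.277). Lif had 23.0, 23.9 and 23.4 CPM against 22.4, 19.3 and 21.0 CPM, with every R554Q value above every wild-type value and an adjusted p of 0.287. Csf1 had 547, 596 and 516 CPM against 512, 476 and 517 CPM, with an adjusted p of 0.293. Cxcl12 had 240, 253 and 256 CPM against 248, 249 and 236 CPM, which overlapped. Il33 had 4, 10 and 10 reads against 7, 7 and 6 reads. With scaling over the 6 Keap1 libraries, Lif, Csf1 and Cxcl5 were higher without overlap and Ccl7 and Il11 lower, 5 of 9 genes beside 27.5% of all tested genes (14.0% higher and 13.5% lower). Csf1 was apart only in that scaling, since 516 CPM in R554Q replicate 3 and 517 CPM in wild-type replicate 3 change order over 12 libraries. The median of the 9 log2FC values was 0.04, beside -0.001 over all genes.

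**Figure D2:**
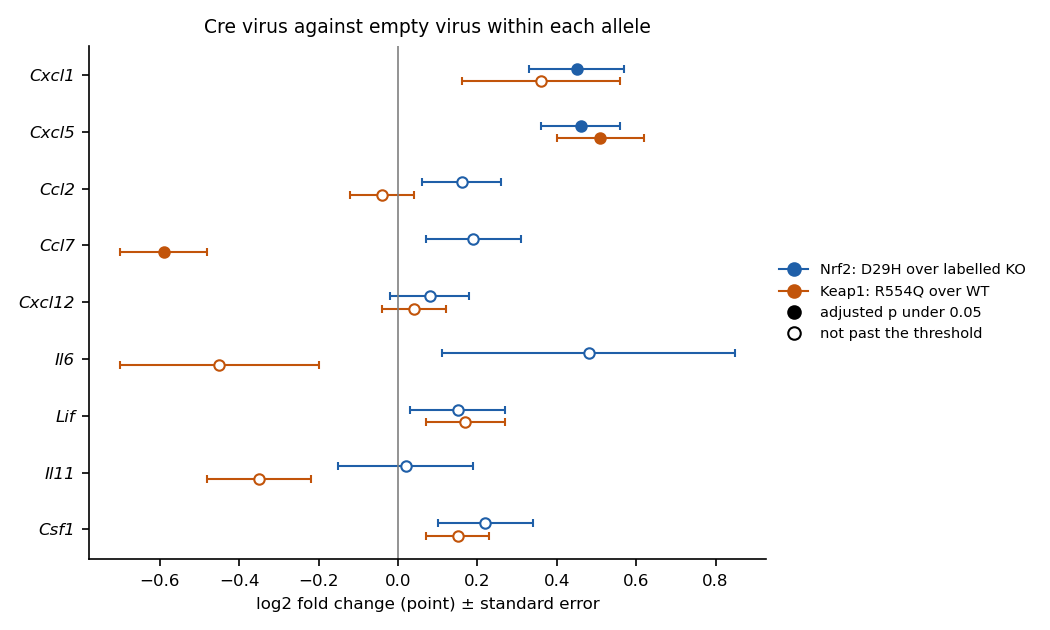
Log2 fold change of Cre over empty virus (points) with its standard error (bars) for the 9 tested genes, in the Nrf2 allele in blue and the Keap1 allele in orange, with filled points past an adjusted p of 0.05. Cxcl5 is filled and right of 0 in both alleles, while Ccl7 is filled and left of 0 in the Keap1 allele.

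A fit of the 12 libraries together tested whether Cre with the mutant protein had another effect in 1 allele than in the other. None of the 9 genes passed that test in edgeR with the filter on low counts, 1 of them (Ccl7) had an unadjusted p under 0.05, and DESeq2 called 1 and limma 0. Over all genes 4 of 14794 were called, or 0.0270% (0.00676% higher and 0.0203% lower). Ccl7 had the effect that differed most beside its SE, with a D29H effect above the R554Q effect by 0.78 (SE 0.19, adjusted p 0.145). It passed the threshold with DESeq2 (0.77, adjusted p 0.0349) and without a filter on low counts (0.77, adjusted p 0.0322), while fits with 1 library left out gave adjusted p from 0.06 to 0.458. The difference for Cxcl5 was -0.05 (SE 0.15) and for Cxcl1 0.10 (SE 0.22). For Il6 it was 0.94 (SE 0.47, adjusted p 0.456) and for Il11 0.37 (SE 0.20, adjusted p 0.501). The remaining 4 genes, Lif, Csf1, Ccl2 and Cxcl12, had differences from -0.01 to 0.20.

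Cxcl1 and Cxcl5 were about 3-fold higher in the Nrf2 culture than in the Keap1 culture with either virus, whereas Il11 was lower there. The allele, the embryos and any batch cannot be told apart in these contrasts, since each culture carried its own allele and has its own table. With empty virus, Cxcl1 was at 9.80 ± 0.286 CPM in the labelled knockout and 3.04 ± 0.514 CPM in Keap1 wild type (SD, n = 3 each). The log2FC was 1.68 (SE 0.16, 3.21-fold, adjusted p 5.2e-08 in edgeR). Cxcl5 was at 43.3 ± 3.88 and 14.9 ± 1.62 CPM, a log2FC of 1.54 (SE 0.11, 2.90-fold, adjusted p 5.6e-10). The lowest labelled knockout library was far above the highest wild-type library for both genes. With Cre virus the log2FC values of D29H over R554Q were 1.78 (SE 0.15, adjusted p 7.1e-09) for Cxcl1 and 1.49 (SE 0.10, adjusted p 4.5e-10) for Cxcl5. All 12 fits with a library left out kept these 4 calls. The ratio of Cxcl5 to Cxcl1 in FPKM stayed between 2.25 and 3.42 in the 12 libraries.

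Ccl7 and Ccl2 were called between the cultures with Cre virus and not with empty virus. Ccl7 was 126 ± 2.71 CPM in D29H and 56.9 ± 9.06 CPM in R554Q (SD, n = 3 each), a log2FC of 1.14 (SE 0.13, 2.21-fold, adjusted p 1.6e-06 in edgeR). The groups were apart, with the lowest D29H library at 124 CPM and the highest R554Q library at 65.6 CPM. With empty virus Ccl7 was 110 ± 25.3 CPM in the labelled knockout and 85.7 ± 10.1 CPM in wild type, and the log2FC of 0.37 (SE 0.13) had an adjusted p of 0.0541. That value lay at the threshold: Ccl7 passed in 6 of 12 fits with a library left out (D29H replicate 1, labelled knockout replicate 3, wild-type replicate 2 or any R554Q library) and in 6 of 8 other alternatives. The fits with a library left out ran from 0.22 to 0.53, the highest without labelled knockout replicate 3 (adjusted p 0.0015). Ccl2 was 88.4 ± 3.89 CPM in D29H and 69.3 ± 4.90 CPM in R554Q, a log2FC of 0.35 (SE 0.08, adjusted p 0.00266). With empty virus Ccl2 had a log2FC of 0.15 (SE 0.08, adjusted p 0.205), and it passed only with GC and length offsets (0.24, adjusted p 0.0165). The test between the alleles above is the test of whether the contrasts with the 2 viruses differ, and neither gene passed it in edgeR with the filter, although Ccl7 passed it with DESeq2 and without the filter.

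Il6, Il11 and Cxcl12 were lower in the labelled knockout than in Keap1 wild type. Il6 was 0.905 ± 0.329 CPM against 2.49 ± 0.124 CPM (SD, n = 3 each), with 9 to 29 reads against 47 to 52 reads per library. The log2FC was -1.41 (SE 0.33, adjusted p 0.00379 in edgeR), and all 12 fits with a library left out kept the call. Il11, which drives fibrosis and platelet formation, was 5.14 ± 0.911 CPM against 9.20 ± 0.578 CPM. Its log2FC was -0.82 (SE 0.14, adjusted p 2.0e-04), also kept in all 12 fits. Cxcl12 was 207 ± 7.37 CPM against 244 ± 7.27 CPM, with a log2FC of -0.24 (SE 0.08, adjusted p 0.0358). That call was lost without a filter on low counts (adjusted p 0.0701) and in 7 of 12 fits with a library left out, those without labelled knockout replicates 1 and 2, R554Q replicates 1 and 3 and each wild-type library, with adjusted p up to 0.138. Between D29H and R554Q, Il11 was 5.26 ± 0.438 against 7.18 ± 0.328 CPM, with a log2FC of -0.45 (SE 0.14, adjusted p 0.0236). The Il11 call was lost without D29H replicates 2 and 3 or R554Q replicates 1 and 3, where adjusted p reached 0.0998. Il6 (-0.47, adjusted p 0.293) and Cxcl12 (-0.19, adjusted p 0.0825) were not called between D29H and R554Q, although DESeq2 called Cxcl12 (adjusted p 0.0226).

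Lif and Csf1 were called in none of the 5 comparisons, apart from Csf1 between D29H and the labelled knockout under a block by the number in the sample descriptions (0.36, adjusted p 2.7e-04). Lif had group means of 23.8 ± 2.37 CPM in D29H, 21.4 ± 2.16 CPM in the labelled knockout, 23.4 ± 0.468 CPM in R554Q and 20.9 ± 1.58 CPM in the Keap1 wild type (SD, n = 3 each). Csf1 had 598 ± 68.5, 511 ± 29.6, 553 ± 40.2 and 502 ± 22.7 CPM in the same order. Neighbouring groups overlapped at every step for both genes. Their log2FC values between cultures were 0.02 to 0.11, with adjusted p of 0.423 or higher in edgeR.

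With empty virus 5 of 9 genes were called between the cultures, 2 higher and 3 lower in the labelled knockout, beside 2911 of 14794 genes, or 19.7% (9.58% higher and 10.1% lower). With Cre virus 5 of 9 were called, 4 higher and 1 lower in D29H, beside 3927 of 14794 genes, or 26.5% (13.1% higher and 13.4% lower). The groups were apart for 6 of 9 genes with either virus, where 37.0% and 37.3% of all tested genes were apart. With empty virus 3 were higher and 3 lower (17.9% and 19.1% of all genes), and with Cre virus 4 were higher and 2 lower (18.3% and 19.0%). The median log2FC values of the 9 genes were 0.04 and 0.11, beside -0.009 and 0.012 over all genes. Macrophage markers moved with the cultures too. Of 14 tested, 11 were higher in the labelled knockout than in wild type and 13 higher in D29H than in R554Q, and none was lower. Of the 14, Fcgr1 passed the filter only through the Nrf2 libraries, where it is higher. Without a filter the counts were the same, 11 and 13 of 14. Of 11 fibroblast markers, 6 were higher in the labelled knockout than in wild type, and between D29H and R554Q 6 were higher and 1 lower. The part of either marker list in the chemokine contrasts was not tested.

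**Figure D3:**
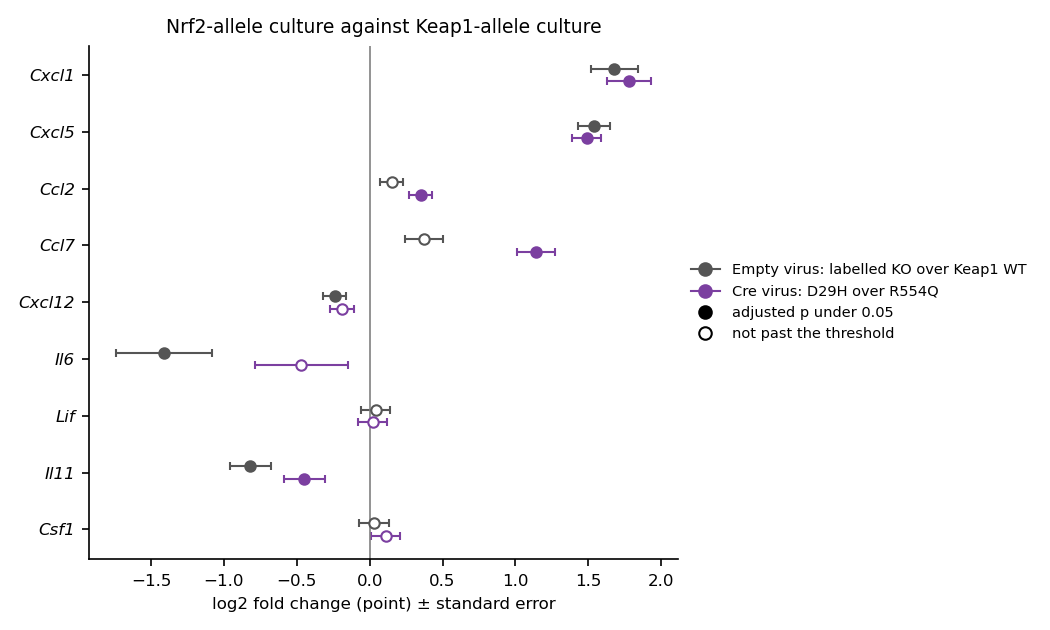
Log2 fold change of the Nrf2 culture over the Keap1 culture (points) with its standard error (bars) for the 9 tested genes, with empty virus in grey and Cre virus in purple, and filled points past an adjusted p of 0.05. Cxcl1 and Cxcl5 lie near 1.5 or above with both viruses, Ccl7 lies further right with Cre virus, and Il6 and Il11 lie left of 0.

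Receptors for these ligands ranged from abundant to nearly unread. Il1rl1, which encodes the interleukin-33 receptor, had 49.3 to 126 FPKM over the 12 libraries, far above its ligand Il33. Il6st, the shared subunit, had 19.4 to 46.8 FPKM, and the interleukin-11 receptor gene Il11ra1 had 20.4 to 27.8 FPKM. The oncostatin M receptor gene Osmr, which is on the receptor list although none of the 10 genes encodes oncostatin M, had 7.85 to 16.9 FPKM. By contrast Il6ra (1.32 to 2.73 FPKM) and Lifr (0.849 to 1.72 FPKM) were low, as was Il1rap, the second chain for interleukin-33 (2.81 to 4.49 FPKM). The leukocyte chemokine receptors had almost no reads: Cxcr2 had 2 reads and Cxcr1 4 reads in all 12 libraries, and Ccr2 had 5 reads. Cxcr4 had 0.258 to 0.609 FPKM, while Ackr3, a second CXCL12 receptor that scavenges its ligand, had 3.78 to 9.86 FPKM. Csf1r, a macrophage receptor, had 1.36 to 4.18 FPKM.

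In edgeR with the filter on low counts, none of the receptor genes was called within an allele, while the fit without a filter called 1 of 18 lower in the Nrf2 allele and 1 of 16 lower in the Keap1 allele. In the Nrf2 comparison 0 of 12 were called, beside 4.75% of all genes, with 3 at an unadjusted p under 0.05 and with 1 called by DESeq2 and 0 by limma. In the Keap1 comparison 0 of 11 were called, beside 6.17% of all genes, with 2 at an unadjusted p under 0.05 and 0 called by either other tool. Between the cultures 7 of 12 were called with each virus, 6 higher and 1 lower in the Nrf2 culture, beside 19.7% (empty virus) and 26.5% (Cre virus) of all genes. The higher ones include Osmr, and also a receptor that passed the filter only through the Nrf2 libraries, where it is higher. Without a filter 6 of 16 were higher and 1 lower with each virus. With empty virus the higher ones included Csf1r at 1.37 (SE 0.11, adjusted p 9.5e-09) and Il6st at 0.86 (SE 0.10, adjusted p 2.8e-06). The receptor that was lower was Ackr3, at -0.75 (SE 0.14, adjusted p 4.5e-04). With Cre virus Csf1r was at 1.26, Il6st at 0.75 and Ackr3 at -0.95. Csf1r is also a macrophage gene, and it moved with the macrophage markers above. The median log2FC of the 12 receptors was 0.36 with empty virus and 0.47 with Cre virus.

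Genes of the NF-κB pathway, from receptors to the inhibitors they induce, were called in 1 of 26 and 4 of 25 cases within the alleles, beside 4.75% and 6.17% of all genes. In the Nrf2 comparison 1 of 26 was called, Ikbkg, the regulatory subunit of the IκB kinase, which rose by 0.40 (SE 0.10, adjusted p 0.0278 in edgeR). In the Keap1 comparison 4 of 25 rose and none fell. They were the IκB-like cofactor gene Bcl3 (0.82, adjusted p 0.00478), Ikbkg (0.63, adjusted p 1.3e-04), the adhesion molecule gene Icam1 (0.54, adjusted p 0.0376) and the TNF receptor gene Tnfrsf1a (0.36, adjusted p 0.0129). The list medians were -0.02 and 0.05 in log2FC. Between the cultures with empty virus 4 of 26 were higher and 3 lower in the labelled knockout, beside 19.7% of all genes called. Bcl3 (1.36), the interleukin-1 receptor gene Il1r1 (0.69) and Icam1 (0.51) led the higher genes, and Tnfaip3 (-0.47), Ikbkg (-0.46) and Ptgs2 (-0.44) were the lower ones. With Cre virus 3 were higher, Bcl3 (0.90), Il1r1 (0.66) and Nfkbiz (0.55), and Ikbkg (-0.69), Tnfaip3 (-0.50) and Ptgs2 (-0.26) were lower. These 6 of 26 stand beside 26.5% of all genes, so the share of the list called was close to the background.

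Of the genes of the JAK-STAT pathway downstream of Il6st, 2 of 18 were called in the Nrf2 comparison and 5 of 18 in the Keap1 comparison, beside 4.75% and 6.17% of all genes. In the Nrf2 comparison the kinase gene Tyk2 rose by 0.46 (SE 0.11, adjusted p 0.019 in edgeR) and the transcription factor gene Cebpd fell by 0.39 (SE 0.11, adjusted p 0.04), and the fit without a filter called 4 of 19. In the Keap1 comparison 4 of 18 rose and 1 fell. Cebpb, a transcription factor gene of the acute response, rose by 0.91 (SE 0.12, adjusted p 1.1e-04), Stat5a by 0.50 (adjusted p 0.0074) and the feedback inhibitor gene Socs3 by 0.35 (adjusted p 0.0458). Timp1, an inhibitor of matrix proteases, fell by 0.33 (adjusted p 0.0444). No gene of the list was called for a difference between the alleles, where 3 had an unadjusted p under 0.05 (Cebpb, Cebpd and Il4ra) and neither DESeq2 nor limma called any, so the alleles are not shown to differ. Between the cultures with empty virus 7 of 18 were higher in the labelled knockout, led by Socs3 (0.81), Cebpd (0.81) and Fos (0.63), and none was lower, beside 9.58% of all genes called higher. With Cre virus 4 were higher in D29H, led by Socs3 (0.61), Cish (0.59) and Socs1 (0.46), and Cebpb was lower (-0.43), 5 of 18 genes beside 26.5% of all genes. The list medians were -0.03 and 0.11 within the alleles and 0.25 and 0.10 between the cultures.

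Of 30 other chemokine genes, 27 were listed and at most 16 passed the filter on low counts. Within the Nrf2 allele 0 of 16 were called in edgeR, beside 4.75% of all genes, with 3 at an unadjusted p under 0.05 and 0 called by DESeq2 or limma, while edgeR without a filter called 1 of 26, lower in D29H. Within the Keap1 allele Ppbp, which encodes a platelet and neutrophil chemokine, rose by 0.43 (SE 0.11, adjusted p 0.0316), and Ccl20, which draws cells through CCR6, fell by 1.51 (SE 0.37, adjusted p 0.0232). These 2 of 11 genes stand beside 6.17% of all genes, and DESeq2 called 1 and limma 2 of the list. Between the cultures 8 of 15 were higher in the labelled knockout and 13 of 15 higher in D29H, and none was lower, beside 9.58% and 13.1% of all genes called higher. Of the 15, Ccl12, Ccl17, Cxcl10 and Pf4 passed the filter only through the Nrf2 libraries, where they are higher. For these genes the filter itself favoured that direction. Without a filter 7 and 14 of 25 were called higher and none lower, beside 1428 and 1910 of 20844 genes called higher. Ccl12 (2.21), Pf4 (1.99) and the membrane chemokine gene Cx3cl1 (1.29) led with empty virus, and Ccl12 (2.78), Ccl17 (2.64) and Pf4 (2.34) with Cre virus. Among genes that passed the filter in the Keap1 libraries too, Cx3cl1 (1.29), Ppbp (1.27) and Cxcl15 (1.23) led with empty virus. With Cre virus Ccl20 (1.95), Ccl9 (1.43) and Cx3cl1 (1.29) led among them. Several genes of the list had few reads, such as 2 to 39 per library for Ccl12 and 5 to 51 for Pf4. Within the alleles the list medians were 0.17 and -0.16. Between the cultures they were 1.17 and 1.27, with Ccl12, Ccl17, Cxcl10 and Pf4 included, and the macrophage markers were higher in the same groups.

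Among other cytokine genes, Clcf1 and Tnfsf11 were called in both alleles. Clcf1, which encodes a ligand that also signals through Il6st, rose by 0.46 (SE 0.12, adjusted p 0.0267) in the Nrf2 allele and by 0.63 (SE 0.12, adjusted p 0.00399) in the Keap1 allele. Tnfsf11, which encodes the osteoclast factor RANKL, fell by 0.52 (SE 0.12, adjusted p 0.015) and by 0.47 (SE 0.13, adjusted p 0.0359). These were the 2 calls among 19 genes in the Nrf2 allele, beside 4.75% of all genes. In the Keap1 allele 4 of 18 were called, beside 6.17% of all genes, with the stem cell factor gene Kitl also higher, by 0.96 (SE 0.12, adjusted p 6.9e-05), and the epithelial cytokine gene Tslp lower, at -1.18 (SE 0.32, adjusted p 0.038). Between the cultures with empty virus 4 of 19 were higher and 3 lower, led by Tnf (2.78, from 1 to 18 reads per library), Tslp (0.84) and Ctf1 (0.82), and by Tgfb2 (-0.61), Spp1 (-0.48) and Tgfb3 (-0.26). With Cre virus 4 were higher, led by Tnf (1.65), Tslp (1.41) and Ctf1 (0.80), and Kitl (-1.07) and Tgfb2 (-0.47) were lower. These 7 and 6 of 19 stand beside 19.7% and 26.5% of all genes. Tnf is counted in both, although it passed the filter only through the Nrf2 libraries, where it is higher. Without a filter 4 of 31 were higher and 2 lower with each virus. The list medians lay between -0.11 and 0.02 in these 4 comparisons.

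Cxcl5 and Cxcl1 sit in 1 cluster of chemokine genes, and Ccl2 and Ccl7 in another. The protein-coding genes listed within 200 kb of each pair were examined after the values of the pairs had been seen. Around Cxcl5 and Cxcl1 there were 11 such genes, with Ppbp at 9.2 kb from the start of Cxcl5, Pf4 at 13.1, Cxcl3 at 26.8, Cxcl15 at 35.2, Cxcl1 at 131.9 and Cxcl2 at 144.6 kb. Between the labelled knockout and wild type 7 of 9 tested genes were called, beside 19.7% of all genes, and 6 of them, all chemokine genes, were higher by 0.98 (Cxcl3) to 1.99 (Pf4). Pf4 passed the filter only through the Nrf2 libraries, where it is higher. The next highest was Cxcl1, at 1.68 here and 1.78 with Cre virus. The flanking gene Rassf6 was lower (-0.53, adjusted p 0.00274), and Mthfd2l on the other side had a log2FC of 0.00 (SE 0.11). With Cre virus the same 6 chemokine genes were higher by 1.09 (Ppbp) to 2.34 (Pf4) and Rassf6 was at -0.40, again 7 of 9 genes called, beside 26.5% of all genes. Within the alleles 2 of 10 (Cxcl5 and Cxcl1, Nrf2) and 2 of 7 (Cxcl5 and Ppbp, Keap1) were called, beside 4.75% and 6.17% of all genes. The region was chosen for Cxcl5 and Cxcl1, which are counted in every share given here and make up the Nrf2 calls. These shares therefore do not test the region.

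Around Ccl2 and Ccl7 the genes did not move as 1 block. Of 4 tested, Ccl12, at 66.3 kb from the start of Ccl2, was the gene called between the labelled knockout and wild type (2.21, SE 0.41), beside 19.7% of all genes. Ccl12 passed the filter only through the Nrf2 libraries, where it is higher, so the filter itself favoured that direction. With Cre virus Ccl2 (0.35), Ccl7 (1.14) and Ccl12 (2.78, SE 0.39) were called, beside 26.5% of all genes, while Ccl8, at 79.6 kb, was at -0.06 (SE 0.31). Within the Keap1 allele Ccl7 was the call among 3 tested genes, beside 6.17% of all genes. This region was chosen for Ccl2 and Ccl7, which are counted in its shares, so the shares do not test the region.

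**Figure D4:**
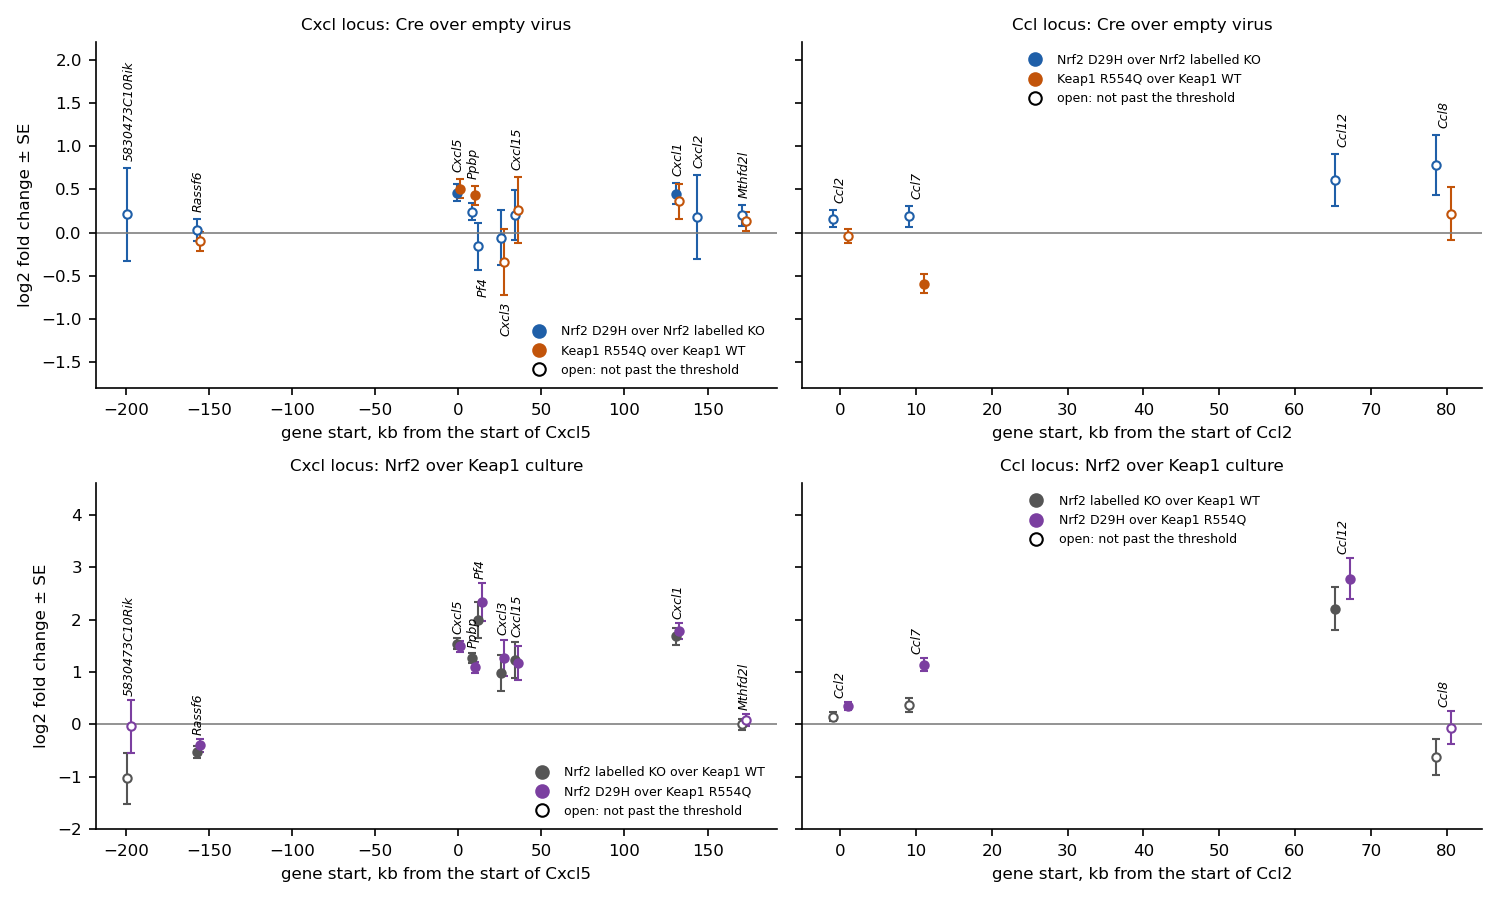
Log2 fold change ± SE of each tested gene against the distance of its start from Cxcl5 (left) or Ccl2 (right), in kb, for Cre over empty virus (top) and the Nrf2 over the Keap1 culture (bottom), with filled points past the threshold and points of 1 gene set slightly apart sideways. The bottom left panel shows the 6 chemokine genes from Cxcl5 to Cxcl1 above 0 and the flanking gene Mthfd2l at 0.

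The gene whose level over the 12 libraries was most like Cxcl1 was Cxcl5, and the reverse, out of 10594 genes with a mean of at least 100 reads. Pearson's r of log2 CPM was 0.989 between them, and Ppbp followed at 0.979 with Cxcl1 and 0.983 with Cxcl5. For Ccl7 the most alike were Erg and Ska1 (both 0.963), and for Ccl2 Rdm1 (0.944) and 1190002F15Rik (0.943). Cxcl12 was most like Dtna (0.972) and Stox2 (0.966), and Il11 most like the smooth muscle gene Tagln (0.975) and Cd40 (0.968). Il6 was most like Rnf11 (0.937) and Fam149a (0.923), Csf1 most like Igf2bp1 (0.942) and Kdm5c (0.939), and Lif most like Slc25a22 (0.888) and Mbd1 (0.872). The 12 libraries fall into 2 cultures and 4 groups, which these values share. With group means subtracted, r was 0.723 between Cxcl1 and Cxcl5, 0.427 between Cxcl1 and Ppbp and 0.297 between Cxcl5 and Ppbp, and 0.746 to 0.955 for the other pairs named.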

How the data were processed

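RNA-seq of 12 libraries was analysed. Per the file headers, the authors deposited 2 tables of unnormalised read counts, which list 22114 and 21916 genes. The authors also deposited FPKM (recomputed from count, length and total to within 5e-10%), and normalised group means (a signal), log2 fold changes and p-values of their own comparisons, which entered no test. STAR, DESeq2 and mm10 are named in the submitters' processing notes, without roles or versions. Whether counting used strand is not given in the sources used here. Coordinates are as the tables list them. Of the gene identifiers 98.9% are in GENCODE M21 (GRCm38), 99.91% of these at overlapping positions.

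Counts were tested in R 4.3.3 with edgeR 4.0.16 (filterByExpr, TMM, quasi-likelihood test, Benjamini-Hochberg adjusted p under 0.05 over all genes tested), within each allele on its own 6 libraries, and otherwise in 1 fit of 12 libraries over genes in both tables. Each SE was taken as the absolute log2 fold change over the root of its F statistic. Scripts were tested on simulated data. The alternatives tried were scaling by RLE or upper quartile, testing unfiltered genes or only those with a mean count of 50 or more, DESeq2 1.42.0, limma-trend (limma 3.58.1), replicate blocks, offsets for GC content and length (lowess span 0.3), all 12 libraries, and leaving out each library.

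The 10 genes, the lists and the tests were chosen with earlier results of these data known. Named beside the 10 were the receptors' levels, up to 3 largest rises and falls among the called genes of each list and comparison, Nqo1, and the 2 most alike genes per member; marker, allele and neighbouring genes were named after their values were seen. A receptor that this rule would name is not reported here. Replicates are not stated to come from separate cultures, so p-values measure the spread between these libraries.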

Additional observations from a re-analysis of the deposited data

How the results depend on the processing

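Counts of calls depended on the filter and on single libraries. In the Nrf2 comparison the 682 calls were 1195 with no filter and 82 to 2192 with a library left out (82 without D29H replicate 3, 94 without D29H replicate 2, 301 without labelled knockout replicate 2, 2192 without D29H replicate 1), and DESeq2 gave 466 higher and 312 lower against 498 and 184. In the Keap1 comparison the 872 calls were 1502 with no filter, 509 with GC and length offsets and 238 (without R554Q replicate 1) to 2872 (without R554Q replicate 3) with a library left out (241, 392 and 430 without wild-type replicates 2, 1 and 3, and 410 without R554Q replicate 2). For the difference between the alleles the 4 calls were 1 with upper-quartile scaling, a mean count of at least 50 or limma, 32 with no filter, 71 with DESeq2 and 0 (without D29H replicates 2 or 3, R554Q replicate 1 or wild-type replicate 1) to 26 (without D29H replicate 1) with a library left out. The 2 counts between the cultures stayed within 1.5 times. Title replicate numbers did not pair the libraries: same-number deviations correlated at -0.146 to -0.111 in the Nrf2 comparison and -0.372 to 0.0901 in the Keap1 comparison, so not every library correlated best with its own number. By the number in the sample descriptions, D29H replicate 2 goes with labelled knockout replicate 1 (0.0738) and D29H replicate 3 with labelled knockout replicate 2 (0.0936). Each was the highest value for its D29H library, and whether that number pairs libraries is not stated. A replicate block gave 728, 484 and 2 calls in these 3 comparisons, and blocking by the number in the sample descriptions, with 1 residual degree of freedom, gave 3941 in the Nrf2 comparison.

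Of the 10 genes, no called direction turned. Uncalled values that changed sign were Il6 (-0.14) and Il11 (-0.16) in the Nrf2 comparison under that second block, and, with GC and length offsets, Ccl2 (0.16) and Cxcl12 (-0.03) in the Keap1 comparison, Lif (0.04) and Cxcl1 (-0.10) between the alleles and Csf1 (-0.02) with empty virus. With a library left out, Il11 ran from -0.10 to 0.12 in the Nrf2 comparison and Ccl2 from -0.07 to 0.03 in the Keap1 comparison. Between the alleles Lif ran from -0.08 to 0.07, Cxcl1 from -0.03 to 0.26 and Cxcl5 from -0.13 to 0.03. Between the cultures Lif ran from -0.05 to 0.10 and Csf1 from -0.02 to 0.07 with empty virus, and Lif from -0.04 to 0.09 with Cre virus. The causes were not tested. Il33, with 2 to 11 reads per library, did not pass the filter in any comparison.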
